A study of Homo sapiens with 16 samples.

Results

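A set of 10 genes that govern entry into S phase were followed across all 8 groups of the series, namely the cyclins CCND1, CCND2, CCND3 and CCNE1, the kinase CDK6, the CDK inhibitors CDKN1A, CDKN2A and CDKN2B, RB1 and MYC. They were chosen by name, and all 10 were found among the 57820 genes of the deposited tables. MDA-MB-231 and MDA-MB-436 are mesenchymal triple-negative breast cancer cell lines, and each was stably transfected with 7TGP, a reporter in which tandem TCF sites drive eGFP beside a puromycin cassette. Each reporter line was sorted repeatedly by eGFP into a 7TGP-NEG and a 7TGP-POS subline, and both were grown in low serum (0.5% FBS, harvested on day 3) or standard serum (10% FBS, day 6), with 2 biological replicates per group. All groups therefore carry the reporter and the selection. By the study's flow cytometry, the sublines positive for the reporter still hold some eGFP-negative cells. The study describes MDA-MB-231 as carrying a CDKN2A mutation and MDA-MB-436 a BRCA1 mutation. Each line had its own medium in the study's methods, so line and medium cannot be told apart. Low serum libraries were made after ribosomal RNA depletion and standard serum libraries by polyA selection on another sequencer, so serum, day, preparation and sequencer cannot be told apart, and levels were tested only within a serum condition.

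D-type cyclins bind CDK4 or CDK6 and phosphorylate RB1, which releases E2F factors that switch on genes for DNA synthesis, among them CCNE1, the partner of CDK2. CDKN2A (p16INK4a, and p14ARF from another reading frame) and CDKN2B (p15INK4b) inhibit CDK4 and CDK6, while CDKN1A (p21) inhibits CDK2 complexes and is a target of p53. MYC and CCND1 are textbook targets of TCF and beta-catenin, the factors that the 7TGP reporter reads.

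Total counts per library were 27918418 to 32667756 in low serum and 31827130 to 46044073 in standard serum. Labels name 2 biological replicates per group without saying how they were cultured, so p-values measure the spread between these libraries only. Replicates correlated at 0.994 to 0.998 on the log2 CPM scale, with the widest replicate spread in standard serum in MDA-MB-436 7TGP-POS (median SD 0.0936 against 0.0438 to 0.0668 in the other 7 groups). Summed mesenchymal markers (VIM, CDH2, FN1, ZEB1, TWIST1 and SPARC) reached 949 to 7685 CPM, while 8 epithelial markers summed to 7.30 to 143 CPM. Of 5 measured markers of other cell types, CD3E stayed at 3 counts or fewer in all 16 libraries, CDH5 did so in the 8 standard serum libraries, and the sum of the list was 0.124 to 13.9 CPM. CPM here is counts scaled to the effective library size, which allows a gene to be compared between libraries of 1 serum condition, while TPM is per transcript length and is used only to compare genes within a library. Values after ± are SD over 2 replicates for levels and standard errors of the fit for log2 differences.

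Promoter sequence was held for 7 of the 10 genes, all but CCND1, CCND2 and MYC. It came in 11 windows of the RefSeq promoter table (GRCh38.p14), of which the 250 bases before each start are described. The only RB1 window (chr13:48476200-48476449) lies within the gene, before an internal start, with a GC content of 36.8%. Those of CDKN2A, CDKN2B, CDK6 and CCNE1 are printed because RNA of these genes differed widely between the lines or, for CDK6, also between sublines. Each is on the strand of its gene, 5′ to 3′, with capitals marking GC boxes (GGGCGG or its reverse complement), which occur in 42.6% of the 35116 windows of the table. The first CDKN2A window (chr9:21995325-21995574) precedes the upstream start, used for p14ARF, and the second (chr9:21974858-21975107) the downstream start, used for p16INK4a.
CDKN2A, upstream start: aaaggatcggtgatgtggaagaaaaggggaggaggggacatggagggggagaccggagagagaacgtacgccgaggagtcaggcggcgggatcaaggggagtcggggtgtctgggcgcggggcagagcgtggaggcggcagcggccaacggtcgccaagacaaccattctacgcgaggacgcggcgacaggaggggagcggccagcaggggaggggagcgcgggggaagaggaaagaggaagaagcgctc
CDKN2A, downstream start: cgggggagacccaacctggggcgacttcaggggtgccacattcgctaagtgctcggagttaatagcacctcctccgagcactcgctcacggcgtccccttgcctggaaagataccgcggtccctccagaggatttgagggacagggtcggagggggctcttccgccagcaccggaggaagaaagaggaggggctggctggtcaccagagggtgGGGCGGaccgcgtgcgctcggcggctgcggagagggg
CDKN2B, chr9:22009306-22009555: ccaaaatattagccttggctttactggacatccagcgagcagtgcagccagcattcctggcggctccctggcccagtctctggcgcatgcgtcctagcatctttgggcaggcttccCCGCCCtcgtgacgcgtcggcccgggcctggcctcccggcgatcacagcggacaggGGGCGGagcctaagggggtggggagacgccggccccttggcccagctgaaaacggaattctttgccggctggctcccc
CDK6, chr7:92836574-92836823: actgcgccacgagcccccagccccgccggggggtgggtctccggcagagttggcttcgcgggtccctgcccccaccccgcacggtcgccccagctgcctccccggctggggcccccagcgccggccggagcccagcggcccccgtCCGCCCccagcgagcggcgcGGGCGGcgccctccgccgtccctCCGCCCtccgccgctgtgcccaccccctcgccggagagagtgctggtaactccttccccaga
CCNE1, chr19:29811741-29811990: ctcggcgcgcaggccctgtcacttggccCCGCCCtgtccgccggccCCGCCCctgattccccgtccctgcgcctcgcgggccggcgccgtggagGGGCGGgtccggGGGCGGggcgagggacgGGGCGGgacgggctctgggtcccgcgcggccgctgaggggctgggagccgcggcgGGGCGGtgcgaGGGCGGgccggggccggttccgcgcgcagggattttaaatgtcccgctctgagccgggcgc
The CCNE1 window held 7 GC boxes and the upstream CDKN2A window none. CDK6 has a second window in the table (chr7:92833960-92834209), not printed, with a GC content of 67.6% and no GC box. GC content was 66.4% for CDKN2B, 80% for the printed CDK6 window and 81.2% for CCNE1, against a median of 58% over the table. None of the 11 windows held the TCF core ATCAAAG (2.26% of all windows), the E2F letters TTTGGCGC (0.550%) or TTTCCCGC (1.39%), the E-box CACGTG (6.34%) or TATAAA (10.7%) on either strand. The promoters of CCND1, CCND2 and MYC were not searched, nor was the promoter at the upstream start of RB1.

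**Figure D1:**
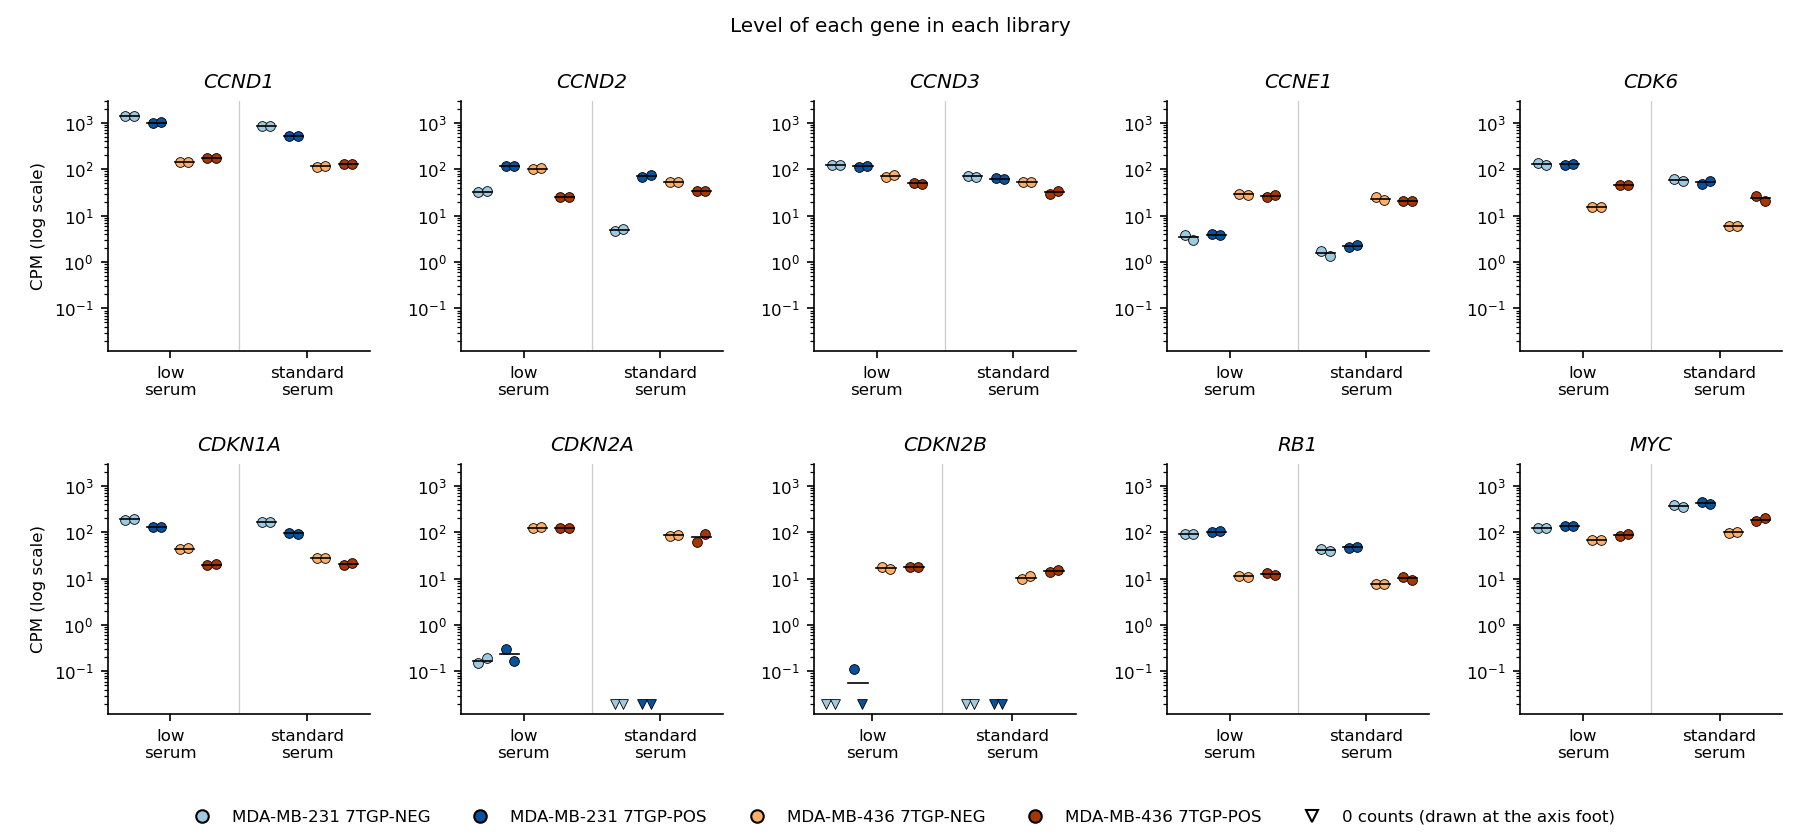
Level of each gene in each library in CPM on a log axis, with 1 point per library, a bar at the mean of 2 replicates and triangles at the foot of the axis for libraries with 0 counts. CDKN2A and CDKN2B were at or near 0 in all 8 MDA-MB-231 libraries, and CCND2 and CDK6 separated the sublines within a line.

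The INK4 inhibitors were read in MDA-MB-436 and almost not at all in MDA-MB-231. CDKN2A (ENSG00000147889, chr9:21967751-21995300 on GRCh37, minus strand) had 4 and 5 counts in MDA-MB-231 7TGP-NEG, 8 and 4 in 7TGP-POS in low serum, and 0 in all 4 standard serum libraries of that line. MDA-MB-436 libraries held 3336 to 3764 counts in low serum and 2890 to 3586 in standard serum. Groups of the 2 lines lay far apart, while the sublines of MDA-MB-436 overlapped in both serum conditions. CDKN2A was 738-fold higher in MDA-MB-436 7TGP-NEG than in its MDA-MB-231 counterpart in low serum, where the 9 MDA-MB-231 counts gave 0.168 CPM with an exact Poisson 95% interval of 0.0770 to 0.320, which covers counting error only. In standard serum MDA-MB-436 exceeded MDA-MB-231 by at least 812-fold for 7TGP-NEG and by at least 789.6-fold for 7TGP-POS, against a floor of 3 counts per library. CDKN2B (chr9:22002902-22009304, minus strand) had 3 counts in 1 MDA-MB-231 7TGP-POS library in low serum and 0 in the other 7 libraries of that line, against 341 to 676 counts in MDA-MB-436. MDA-MB-436 exceeded MDA-MB-231 in CDKN2B by at least 100.2-fold in each of the 4 comparisons, and the highest of these bounds was 148-fold. Reads at the gene level do not separate p16INK4a from p14ARF. The antisense CDKN2B-AS1 overlaps the locus and had 366 counts over the 4 low serum MDA-MB-436 libraries against 1 in MDA-MB-231, and how the counting used strand is not given in the sources used here. In bulk RNA, fewer cells carrying a transcript and less transcript per cell cannot be told apart.

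The same absence extended over neighbouring coding genes. Walking outward from CDKN2A through the coding genes with more than 3 counts in every MDA-MB-436 library, 8 of 8 were silent in MDA-MB-231 from HACD4 to ELAVL2 (chr9:20999508-23826335, 2.83 Mb), where silent means at most 10 counts in each low serum library and at most 3 in each standard serum library. These 8 genes (HACD4, IFNB1, KLHL9, MTAP, CDKN2A, CDKN2B, DMRTA1 and ELAVL2) held 35 counts in the 4 low serum MDA-MB-231 libraries against 27653 in MDA-MB-436, or 0.127%. In standard serum they held 0 against 27982. Genes entered this count by their reads in MDA-MB-436, so a gene read only in MDA-MB-231 could not enter it. Processed pseudogenes in the stretch were read in MDA-MB-231 in low serum. KHSRPP1 had 34 to 47 counts per library there (1.54 CPM against 0.782 in MDA-MB-436) and CLIC4P1 13 to 21 (0.686 against 0.194). MTAP, the enzyme that salvages methylthioadenosine, exceeded its MDA-MB-231 level by at least 268-fold in MDA-MB-436 7TGP-NEG in standard serum. KLHL9, a substrate adaptor of a CUL3 ubiquitin ligase, did so by at least 321-fold. IFNB1, the interferon beta gene, was low in MDA-MB-436 too, and its bounds ran from 16.5-fold in 7TGP-NEG in low serum down to 2.43-fold in 7TGP-POS in standard serum, where MDA-MB-436 had 0.238 CPM. On the centromeric side TUSC1 was read in both lines, at 11.5 CPM in MDA-MB-231 and 28.0 in MDA-MB-436 in low serum. On the telomeric side FOCAD was read in both, and its level in MDA-MB-231 7TGP-NEG was lower by log2 -1.97 ± 0.07 in low serum and -3.14 ± 0.13 in standard serum (edgeR adjusted p = 3.29e-27 and 5.56e-14). MLLT3, the next gene, was higher in MDA-MB-231 7TGP-NEG by log2 2.95 ± 0.10 and 3.45 ± 0.14. CNTLN and SH3GL2, further toward the telomere, were silent in MDA-MB-231 as well, although RPS6, PLIN2, RRAGA, HAUS6 and DENND4C between them and FOCAD were read. SAXO1 and SLC24A2, in the same interval, held 11 counts or fewer in every library of both lines. ADAMTSL1, also between them, was the reverse, at 69.9 CPM in MDA-MB-231 and 0.329 in MDA-MB-436 in low serum. Of the 9p21 list, which holds these neighbours without CDKN2A and CDKN2B, 9 of 10 tested genes were called between lines in 7TGP-NEG and 10 of 10 in 7TGP-POS in low serum, and 9 of 9 and 8 of 9 in standard serum, with MLLT3 the 1 gene higher in MDA-MB-231. The shares of all tested genes called in these comparisons were 41.9%, 38.9%, 46.7% and 45.4%. RNA counts carry no DNA copy number, and whether the DNA is present in MDA-MB-231 was not tested.

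**Figure D2:**
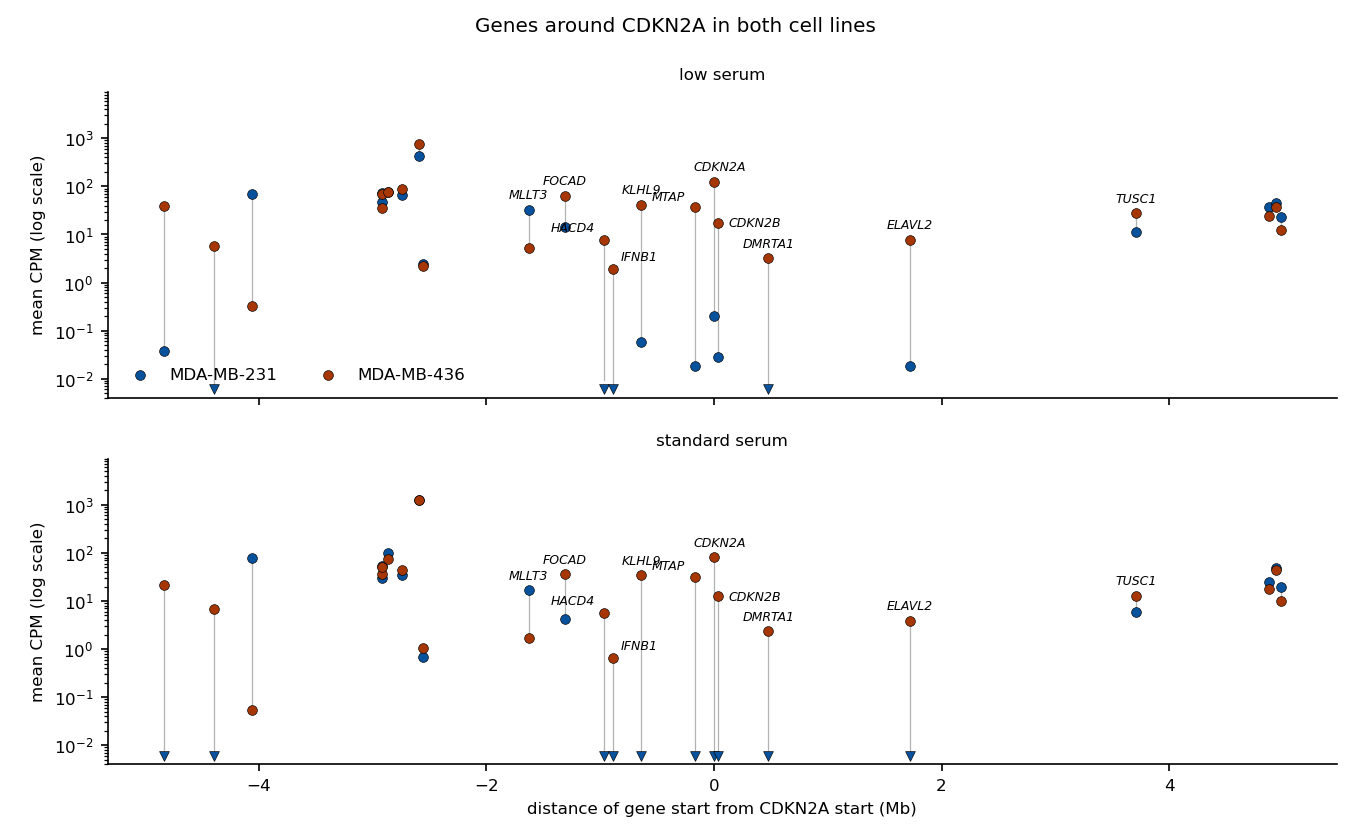
Mean CPM over the 4 libraries of each line (log axis) for coding genes within 5 Mb of CDKN2A against the distance of their starts, with low serum above and standard serum below, a grey line joining both lines and triangles for means under 0.01 CPM. All 8 genes from HACD4 to ELAVL2 drop to the foot of the plot or near it in MDA-MB-231, and their flanking genes do not.

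RB1 showed the opposite order, with MDA-MB-231 high and MDA-MB-436 low but not absent. RB1 (ENSG00000139687, chr13:48877880-49173572, plus strand) had 2448 and 2414 counts in MDA-MB-231 7TGP-NEG and 2672 and 2555 in 7TGP-POS in low serum, against 353 and 298 in MDA-MB-436 7TGP-NEG and 385 and 327 in 7TGP-POS. Mean levels were 91.0 ± 0.512 and 102 ± 3.22 CPM in MDA-MB-231 and 11.2 ± 0.177 and 12.5 ± 0.565 CPM in MDA-MB-436. The lines did not overlap, and the difference in 7TGP-NEG was log2 3.02 ± 0.07 in low serum (8.12-fold, adjusted p = 2.56e-33) and 2.44 ± 0.10 in standard serum (5.41-fold, adjusted p = 1.61e-13). In 7TGP-POS it was 3.03 ± 0.07 and 2.23 ± 0.10. Between sublines RB1 differed by at most 1.30-fold in both lines and both serum conditions, short of the call. Most neighbours of RB1 did not share its difference between lines. Of 42 tested genes within 5 Mb with a mean of at least 1 CPM, 0 exceeded the RB1 difference in 7TGP-NEG in low serum, and 1 in standard serum did (medians log2 0.01 and 0.02), while in 7TGP-POS 0 and 3 did. TSC22D1, 3.87 Mb before RB1, had 517 CPM in MDA-MB-231 and 86.4 in MDA-MB-436 in low serum, and 603 against 102 in standard serum. Of the 13q14 list, MED4, a Mediator subunit, had 14.6 CPM in MDA-MB-231 and 16.6 in MDA-MB-436 in low serum, and FNDC3A had 140.4 and 162. ITM2B, just before RB1, was higher in MDA-MB-231 7TGP-POS by log2 1.12 ± 0.05 in low serum and 1.03 ± 0.07 in standard serum. SUCLA2, RCBTB2, CDADC1, CAB39L, SETDB2 and PHF11 passed the call between lines in neither subline. LPAR6, which lies in an RB1 intron on the other strand, had 12 counts in MDA-MB-231 and 3 in MDA-MB-436 over the low serum libraries, HTR2A 18 and 1, and CYSLTR2 9 and 28. These 3 passed the call in low serum on such counts, LPAR6 in 7TGP-NEG and the other two in 7TGP-POS.

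**Figure D3:**
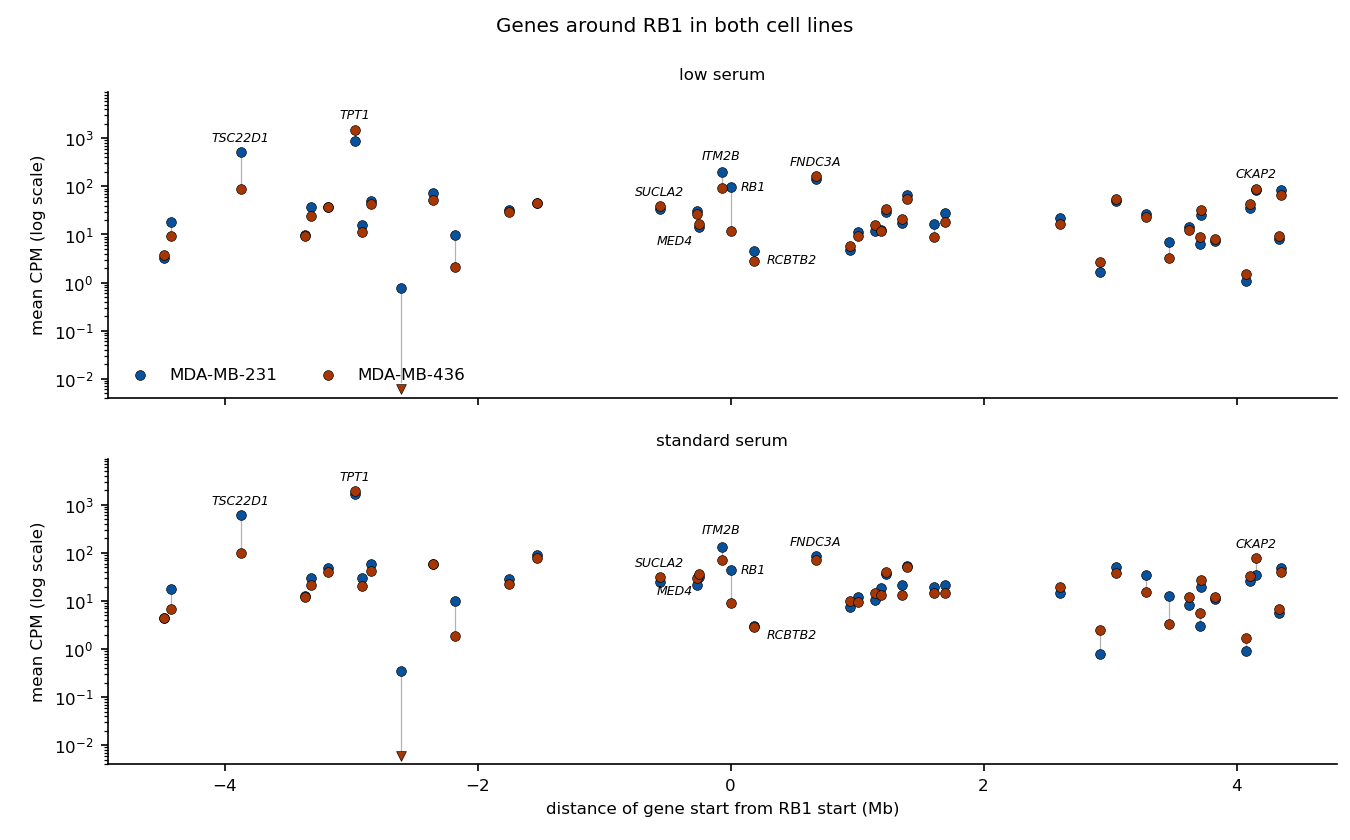
Mean CPM over the 4 libraries of each line (log axis) for coding genes within 5 Mb of RB1 against the distance of their starts, with low serum above, standard serum below, and triangles for means under 0.01 CPM. RB1 stands apart between lines by 8.12-fold in 7TGP-NEG in low serum, while MED4, SUCLA2 and FNDC3A lie close together and TSC22D1 at the left stands apart too.

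Calls were made across all tested genes at once. A gene was called where the edgeR quasi-likelihood test gave an adjusted p under 0.05 and the log2 difference was at least 1. Between lines, 8 of 10 members were called in 7TGP-NEG in low serum (41.9% of all 16069 tested genes were called) and 9 in standard serum (46.7% of 15414). In 7TGP-POS 9 were called in each serum condition, against 38.9% and 45.4% of all genes. CCND1, CDK6, CDKN1A and RB1 were higher in MDA-MB-231 in all 4 comparisons, and CCNE1, CDKN2A and CDKN2B were higher in MDA-MB-436 in all 4. CCND2 alone changed sides with the subline, MYC was called in both sublines in standard serum but in neither in low serum, and CCND3 was called only in 7TGP-POS in low serum. Close to the bound in 7TGP-POS in standard serum, CCND2 stood at log2 0.99 without MDA-MB-231 7TGP-POS replicate 2, CDK6 at 0.99 without MDA-MB-436 7TGP-POS replicate 2, and CCND3 at 1.00 and 1.07 without these libraries.

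CCND1 (chr11:69455924-69469242, plus strand) was the most abundant D-type cyclin in every library. In low serum it had 1429 and 1427 CPM in MDA-MB-231 7TGP-NEG, 995 and 1041 in 7TGP-POS, 145 and 145 in MDA-MB-436 7TGP-NEG and 173 and 174 in 7TGP-POS. The 4 groups did not overlap. The difference between lines was log2 3.30 ± 0.05 in 7TGP-NEG (9.87-fold) and 2.55 ± 0.05 in 7TGP-POS (5.86-fold), and it was 2.89 ± 0.07 and 1.99 ± 0.07 in standard serum. CCND3 (chr6:41902672-42018095, minus strand) differed less, with 125 ± 0.0841 CPM in MDA-MB-231 7TGP-NEG against 72.1 ± 4.32 in MDA-MB-436 7TGP-NEG in low serum. Its largest difference between lines was log2 1.23 ± 0.06 in 7TGP-POS in low serum (2.35-fold, adjusted p = 1.33e-22), and in standard serum the same difference was 0.99 ± 0.08. Of 77 tested neighbours of CCND3 within 5 Mb in low serum, 33 exceeded it in 7TGP-POS and 61 in 7TGP-NEG. Their medians were log2 1.08 and 1.61, and their part in the CCND3 difference was not tested.

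CCNE1 (chr19:30302898-30315219, plus strand) was low in MDA-MB-231, at 3.85 and 2.95 CPM in 7TGP-NEG and 3.93 and 3.77 in 7TGP-POS in low serum. MDA-MB-436 had 29.9 and 28.3 CPM in 7TGP-NEG and 24.7 and 27.7 in 7TGP-POS. The lines did not overlap, and the differences were log2 -3.09 ± 0.11 in 7TGP-NEG and -2.76 ± 0.11 in 7TGP-POS. In standard serum they were -3.93 ± 0.14 (15.2-fold) and -3.20 ± 0.14 (9.16-fold). Of 30 tested neighbours of CCNE1 within 5 Mb in low serum, 4 lay below it in 7TGP-NEG, and their median was 0.20. CDKN1A (chr6:36644237-36655114, plus strand) ran the other way, at 188 ± 9.09 CPM in MDA-MB-231 7TGP-NEG and 44.5 ± 0.623 in MDA-MB-436 7TGP-NEG in low serum (log2 2.08 ± 0.06, 4.23-fold). The 4 differences between lines for CDKN1A ranged from log2 2.08 to 2.69. Its neighbours leaned the same way, with a median of log2 1.38 over 102 genes in 7TGP-NEG in low serum, of which 34 exceeded CDKN1A. MYC (chr8:128747680-128755197, plus strand) was 124 ± 0.940 and 67.9 ± 1.83 CPM in the 7TGP-NEG sublines of MDA-MB-231 and MDA-MB-436 in low serum (log2 0.86 ± 0.05). In standard serum the same sublines had 370.5 ± 17.4 and 99.1 ± 2.01 CPM (log2 1.90 ± 0.08, 3.74-fold, adjusted p = 2.18e-13). Of 28 tested neighbours within 5 Mb of MYC, 1 exceeded that difference, and their median was log2 -1.01.

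Within a line, few members passed the call between 7TGP-POS and 7TGP-NEG. In MDA-MB-231 1 of 10 was called in low serum, in the upward direction, where 5.90% of all tested genes were called (3.50% higher and 2.40% lower). In standard serum 1 was called, again upward, against 7.69% of all genes (4.96% higher and 2.72% lower). In MDA-MB-436 3 were called in low serum, 1 higher and 2 lower, against 10.5% (6.52% higher and 4.03% lower), and 1 higher in standard serum against 12.5% (6.47% higher and 6.06% lower). At an adjusted p under 0.05 with no minimum fold, 4 members passed in MDA-MB-231 in low serum (38.9% of all genes) and 4 in standard serum (33.0%), 6 and 8 in MDA-MB-436 (52.0% and 49.5%), and 6 and 7 in the interaction between line and subline (45.7% and 41.2%). Over the members with a fold, the median log2 difference was 0.13 in MDA-MB-231 in low serum, 0.01 in standard serum, 0.04 in MDA-MB-436 in low serum and 0.01 in standard serum. Medians over all genes tested in these 4 comparisons lay between -0.01 and 0.01. CDKN2B has no fold between sublines of MDA-MB-231 in either serum condition, nor has CDKN2A in standard serum, since both groups were at the floor.

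**Figure D4:**
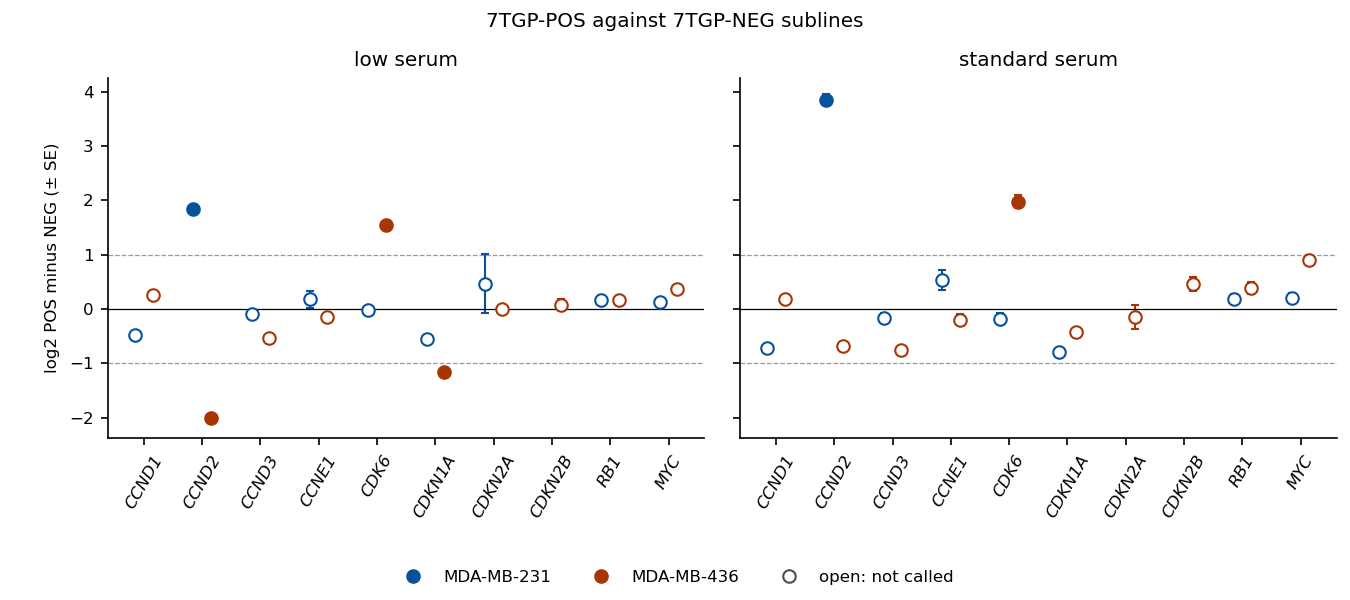
log2 difference of 7TGP-POS minus 7TGP-NEG with its standard error for each gene and line, with filled points for called genes and dashed lines at 1 and -1. CCND2 rose in MDA-MB-231 in both serum conditions and CDK6 rose in MDA-MB-436 in both.

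CCND2, a D-type cyclin (ENSG00000118971, chr12:4378937-4414519, plus strand), moved in opposite directions in the lines. In low serum MDA-MB-231 7TGP-NEG had 31.7 and 34.1 CPM and 7TGP-POS had 115 and 120.1. MDA-MB-436 7TGP-NEG had 100.3 and 106 CPM and 7TGP-POS 25.9 and 25.2. No 2 groups overlapped, and the order ran from MDA-MB-231 7TGP-POS over MDA-MB-436 7TGP-NEG, then MDA-MB-231 7TGP-NEG, to MDA-MB-436 7TGP-POS. CCND2 rose by log2 1.84 ± 0.06 in MDA-MB-231 7TGP-POS (3.57-fold, adjusted p = 4.49e-26) and fell by 2.01 on the log2 scale (± 0.06, 4.03-fold, adjusted p = 1.97e-27) in the MDA-MB-436 counterpart. MDA-MB-231 7TGP-NEG in standard serum had 4.76 and 5.15 CPM, from 152 and 147 counts, and 7TGP-POS had 67.6 and 75.1. There the rise was log2 3.85 ± 0.10 (14.4-fold, adjusted p = 3.54e-15). MDA-MB-436 had 54.5 and 54.4 CPM in 7TGP-NEG and 34.7 and 33.2 in 7TGP-POS, a difference of log2 -0.68 ± 0.08 (adjusted p = 2.11e-06), which is below the fold bound. The difference between the lines in this contrast was tested as an interaction, in which 2 of 10 members were called in each serum condition (11.7% and 13.8% of all genes). For CCND2 it was log2 3.85 ± 0.09 in low serum and 4.53 ± 0.13 in standard serum (adjusted p = 1.81e-31 and 3.54e-14). Of 79 tested genes within 5 Mb in low serum, 0 had a larger rise in MDA-MB-231, and 0 of 75 did in standard serum. In MDA-MB-436 the neighbours had medians of log2 -0.39 and -0.54, and 8 of 79 and 14 of 75 were called lower. Between lines CCND2 was lower in MDA-MB-231 7TGP-NEG by log2 -1.65 ± 0.06 and -3.46 ± 0.10 and higher in MDA-MB-231 7TGP-POS by 2.20 ± 0.06 and 1.07 ± 0.08, while its neighbours had medians of -1.44 and -1.62 in 7TGP-NEG and -1.14 and -1.01 in 7TGP-POS. The part of the neighbours in these differences was not tested.

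Summed TPM of the 3 D-type cyclins in low serum was 706 ± 5.88 in MDA-MB-231 7TGP-NEG and 473 ± 33.8 in 7TGP-POS. In MDA-MB-436 7TGP-NEG and 7TGP-POS it was 167 ± 7.94 and 119 ± 10.0. Mean sums in standard serum were 641 and 445 in MDA-MB-231 (7TGP-NEG, 7TGP-POS) and 156 and 152 in MDA-MB-436. The top gene of a library held 5.77% to 20.6% of TPM in low serum. These sums therefore serve only as the base of the shares, and no difference between groups is read from them. In low serum CCND1 made up 91.3% ± 0.0828 of the sum in MDA-MB-231 7TGP-NEG and 84.5% ± 0.0191 in 7TGP-POS. CCND2 made up 1.42% ± 0.0743 and 6.59% ± 0.00719. In MDA-MB-436 the CCND2 share was 24.9% ± 0.403 in 7TGP-NEG and 7.30% ± 0.109 in 7TGP-POS, and the CCND1 share was 51.7% ± 1.26 and 73.5% ± 0.298. In standard serum the CCND2 share was 0.361% ± 0.0233 and 7.68% ± 0.579 in MDA-MB-231 and 18.2% ± 0.361 and 12.5% ± 0.589 in MDA-MB-436. CCND3 held 15.8% to 24.3% of the sum in MDA-MB-436 and 6.94% to 9.18% in MDA-MB-231 over the group means of both serum conditions. Shares were not tested.

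**Figure D5:**
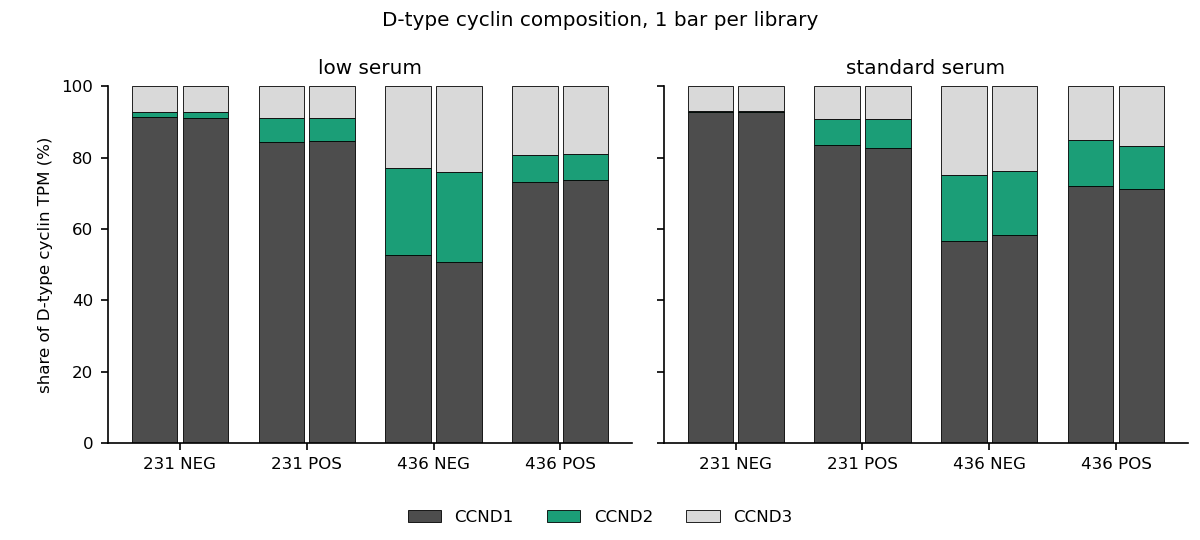
Share of CCND1, CCND2 and CCND3 in their summed TPM, with 1 stacked bar per library, NEG and POS standing for the 7TGP-NEG and 7TGP-POS sublines of MDA-MB-231 and MDA-MB-436. The CCND2 share is larger in 7TGP-POS than in 7TGP-NEG in MDA-MB-231 (6.59% against 1.42% in low serum) and smaller in MDA-MB-436 (7.30% against 24.9%).

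CDK6, the kinase partner of D-type cyclins (ENSG00000105810, chr7:92234235-92465887, minus strand), rose in MDA-MB-436 7TGP-POS in both serum conditions. In low serum it had 15.5 and 15.2 CPM in MDA-MB-436 7TGP-NEG and 44.7 and 45.1 in 7TGP-POS, and in standard serum 5.95 and 6.03 against 25.9 and 21.2. The groups did not overlap, and the rises were log2 1.55 ± 0.07 (2.93-fold, adjusted p = 1.35e-21) and 1.98 ± 0.11 (3.94-fold, adjusted p = 1.53e-10). MDA-MB-231 was higher throughout, with 137 and 121 CPM in 7TGP-NEG and 125 and 129.6 in 7TGP-POS in low serum, and its sublines overlapped there. The difference between its sublines was log2 -0.02 ± 0.06 in low serum and -0.18 ± 0.10 in standard serum. The interaction was log2 -1.57 ± 0.09 and -2.16 ± 0.15 (adjusted p = 5.49e-18 and 3.28e-09). Genes around CDK6 moved with it in MDA-MB-436. Of 37 tested neighbours within 5 Mb in low serum 16 were called higher and 1 lower, with a median of log2 0.94, and of 36 in standard serum 17 were called higher and 0 lower, with a median of 0.95. CDK6 lay above all but 3 and 1 of them. The window and bins were chosen after these values were seen. In bins of 10 Mb along chromosome 7, the bins from 70 to 100 Mb had medians of 0.82, 0.91 and 0.88 in low serum, against 0.69, 1.09 and 0.88 in standard serum, while the 60 to 70 Mb bin had -0.20 and -0.19 and the 100 to 110 Mb bin 0.13 and 0.23. Bins from 0 to 50 Mb had medians of 0.33 to 0.57 over both serum conditions. In MDA-MB-231 the neighbours had medians of 0.06 and 0.09. The part of these neighbours in the CDK6 difference was not tested.

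CDKN1A, which encodes p21, was lower in the 7TGP-POS sublines of both lines, past the call in 1 comparison. In MDA-MB-436 in low serum it had 44.03 and 44.9 CPM in 7TGP-NEG and 19.4 and 20.3 in 7TGP-POS, and it fell by 1.16 on the log2 scale (± 0.06, 2.24-fold, adjusted p = 6.80e-19). In standard serum the difference was log2 -0.43 ± 0.08 (adjusted p = 0.000359), with 28.3 and 27.8 CPM against 19.6 and 22.2. In MDA-MB-231 it was -0.55 ± 0.05 in low serum (adjusted p = 1.22e-11), with 182 and 195 CPM against 128 and 129, and -0.79 ± 0.08 in standard serum (adjusted p = 3.09e-07), with 163 and 164 against 97.4 and 91.6. Groups did not overlap in any of these 4 contrasts, and the interaction was not called in either serum condition (log2 0.61 ± 0.08 and -0.37 ± 0.11, adjusted p = 5.92e-08 and 0.0148).

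The TCF targets CCND1 and MYC did not pass the call between sublines of either line. In 7TGP-POS of MDA-MB-231 CCND1 was lower by log2 -0.49 ± 0.05 in low serum and -0.72 ± 0.07 in standard serum (adjusted p = 4.81e-11 and 2.52e-07), and it stood in MDA-MB-436 7TGP-POS at 0.26 ± 0.05 and 0.18 ± 0.07, the former 0.0153 on log2(TPM + 1). In standard serum MDA-MB-231 had 865 and 854 CPM in 7TGP-NEG and 524 and 518 in 7TGP-POS, and MDA-MB-436 had 113 and 119 against 130.4 and 132. Its interaction was log2 -0.75 ± 0.07 and -0.90 ± 0.10 (adjusted p = 7.33e-12 and 1.01e-06). MYC came close to the fold bound in MDA-MB-436 in standard serum, with 97.7 and 100.5 CPM in 7TGP-NEG and 172 and 199 in 7TGP-POS (log2 0.90 ± 0.08, 1.87-fold, adjusted p = 5.86e-08). In low serum its difference in that line was 0.37 ± 0.05, and in MDA-MB-231 it was 0.13 ± 0.05 and 0.21 ± 0.08 (adjusted p = 0.0523 and 0.0529). CCND3 was lower in MDA-MB-436 7TGP-POS by log2 -0.53 ± 0.06 and -0.76 ± 0.08 (adjusted p = 2.06e-10 and 4.82e-07) and differed by -0.09 ± 0.05 and -0.16 ± 0.08 in MDA-MB-231. CCNE1 differed by log2 0.18 and 0.53 in MDA-MB-231, on 39 to 105 counts per library, and by -0.15 and -0.20 in MDA-MB-436. CDKN2B in MDA-MB-436 was at 17.3 and 15.9 CPM in 7TGP-NEG and 17.6 and 17.5 in 7TGP-POS in low serum, and at 9.89 and 11.2 against 13.9 and 15.03 in standard serum (log2 0.45 ± 0.13, adjusted p = 0.00709). CDKN2A in that line differed by log2 0.00 ± 0.05 and -0.15 ± 0.21, the latter with 63.0 and 91.4 CPM in the 2 7TGP-POS replicates.

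For the 3 members called between sublines, the genes with the most similar pattern were sought among 12520 genes by Pearson's r of log2 CPM centred within each line and serum condition, over 16 libraries that share these 4 blocks. Those nearest to CCND2 were MAP9 (r = 0.983), CNKSR2 (0.979) and SAMD5 (0.975). CNKSR2, a scaffold protein, had 0.183 ± 0.0380 CPM in MDA-MB-231 7TGP-NEG and 5.03 ± 0.0724 in 7TGP-POS in standard serum. Those nearest to CDK6 were ZNF655 (r = 0.993), ALCAM (0.992) and NMNAT2 (0.991). ZNF655, a zinc finger gene on the same chromosome arm, had 57.3 ± 3.06 and 126 ± 5.48 CPM in the MDA-MB-436 sublines in low serum. It lies in the 90 to 100 Mb bin that also holds CDK6, with medians of log2 0.88 in MDA-MB-436 in both serum conditions. Those nearest to CDKN1A were ACSS2 (r = 0.973), which makes acetyl-CoA from acetate, FDFT1 (0.971) and MVK (0.966), enzymes of sterol synthesis. FDFT1 had 595 ± 6.68 CPM in MDA-MB-436 7TGP-NEG and 283 ± 8.31 in 7TGP-POS in low serum. These correlations are a description, with no test.

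Among other genes of G1 and S phase control, 0 to 2 per list were called in each contrast between sublines, which lay under the share of all genes called there (5.90% and 7.69% in MDA-MB-231 and 10.5% and 12.5% in MDA-MB-436). Of 30 further G1/S genes, 0 were called by edgeR or DESeq2 in MDA-MB-231 in low serum (14 had an unadjusted p under 0.05) and 2 in standard serum, where E2F1 fell by 1.14 on the log2 scale (± 0.09, adjusted p = 8.54e-09) and E2F8, a repressive E2F, by 1.18 (± 0.21). In MDA-MB-436 SKP2, the ligase subunit that targets p27 for degradation, was the only gene of that list called. SKP2 fell by 1.28 (± 0.05) in low serum and by 1.33 (± 0.08) in standard serum on the log2 scale. Whether genes near SKP2 on its chromosome fell with it was not tested. The list medians in the 4 contrasts lay between log2 -0.15 and 0.02. Of 24 measured E2F targets, 0 were called in MDA-MB-231 in low serum by edgeR or DESeq2 (19 had an unadjusted p under 0.05) and 1 in standard serum (MCM3, lower by log2 -1.04 ± 0.07 in standard serum) and 2 were called in MDA-MB-436 in each serum condition. Among the latter was MCM7, a subunit of the replicative helicase, higher in 7TGP-POS by log2 1.04 ± 0.05 in low serum and 1.33 ± 0.07 in standard serum. MCM7 lies in the 90 to 100 Mb bin of chromosome 7 that also holds CDK6. That bin had medians of log2 0.88 in MDA-MB-436 in low serum and 0.88 in standard serum. The part of these genes in the MCM7 difference was not tested. The medians of that list were 0.22 and -0.21 in MDA-MB-231 and -0.13 and 0.07 in MDA-MB-436.

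Between lines most called genes of these lists were lower in MDA-MB-231, on the background of 38.9% to 46.7% of all genes called. Of the 24 E2F targets 10 were called in 7TGP-NEG in low serum, 9 of them lower in MDA-MB-231, and 14 in standard serum, all 14 lower. In 7TGP-POS 7 were called in low serum (6 lower) and 18 in standard serum (18 lower), with a list median of log2 -1.66 against -0.08 over all genes in the latter. The other list medians were -0.59 and -0.45 in low serum (7TGP-NEG, 7TGP-POS) and -1.13 in 7TGP-NEG in standard serum. Over all genes these medians were 0.01, -0.07 and -0.09. In low serum the E2F target counts were not above the shares of all genes called (41.9% and 38.9%). ORC1, a subunit of the origin recognition complex, was lower in MDA-MB-231 in all 4 comparisons, by log2 -1.79 ± 0.07 and -1.33 ± 0.07 in low serum (7TGP-NEG, 7TGP-POS) and -3.44 ± 0.11 and -3.86 ± 0.12 in standard serum. RRM2, the ribonucleotide reductase subunit, had 18.5 ± 0.862 CPM in MDA-MB-231 7TGP-NEG and 298 ± 3.73 in MDA-MB-436 7TGP-NEG in standard serum (log2 -4.01 ± 0.08). Of the 30 G1/S genes 13 and 20 were called in 7TGP-NEG in low and standard serum, 10 and 14 of them lower in MDA-MB-231, and 10 and 16 in 7TGP-POS, 7 and 12 of them lower. SKP2 was lower in MDA-MB-231 7TGP-NEG by log2 -3.79 ± 0.06 and -3.59 ± 0.09, and E2F7 higher by 2.39 ± 0.06 and 3.03 ± 0.08.

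Of 20 p53 targets, 1 was called in MDA-MB-231 in each serum condition and 2 in MDA-MB-436, near the 5.90% to 12.5% of all genes. GDF15, a stress-induced cytokine, rose in MDA-MB-231 7TGP-POS by log2 1.09 ± 0.08 and 1.06 ± 0.23. In MDA-MB-436 7TGP-POS CCNG1 fell by 1.25 (± 0.06) and 1.20 (± 0.08) on the log2 scale, and GADD45A rose by 1.35 ± 0.09 in standard serum. The medians of the p53 list between sublines were log2 0.05 and 0.13 in MDA-MB-231 and -0.25 and 0.06 in MDA-MB-436. Between lines 8 and 11 of the list were called in 7TGP-NEG (41.9% and 46.7% of all genes were), and 10 and 15 in 7TGP-POS (38.9% and 45.4%). In 7TGP-NEG, AEN, an exonuclease, was lower in MDA-MB-231 by log2 -1.73 ± 0.06 in low serum and -1.33 ± 0.08 in standard serum, and TIGAR by -1.99 ± 0.09 and -2.57 ± 0.11. TIGAR lies within 5 Mb of CCND2, whose neighbours had medians of log2 -1.44 and -1.62 in these comparisons. Their part in the TIGAR difference was not tested. Of 12 MYC network partners MYCL was called lower in the 7TGP-POS subline of MDA-MB-231 in both serum conditions (log2 -1.03 ± 0.34 and -2.21 ± 0.28), MYCN higher in the 7TGP-POS subline of MDA-MB-436 in low serum (2.28 ± 0.36), and 0 in MDA-MB-436 in standard serum by edgeR or DESeq2 (5 had an unadjusted p under 0.05). Both stood at low levels, MYCL at 1.18 and 1.14 CPM in MDA-MB-231 7TGP-NEG and 0.637 and 0.492 in 7TGP-POS in low serum, and MYCN at 0.321 and 0.483 in MDA-MB-436 7TGP-NEG and 2.21 and 1.66 in 7TGP-POS. Of 20 MYC targets, mostly genes of ribosome assembly, 0 were called between sublines in any of the 4 contrasts by edgeR or DESeq2, although 14 and 7 had an unadjusted p under 0.05 in MDA-MB-231 and 15 and 14 in MDA-MB-436. The list medians were log2 0.13 and -0.07 in MDA-MB-231 and -0.01 and 0.18 in MDA-MB-436. Between lines 7 and 6 MYC targets were called in low serum in 7TGP-NEG and 7TGP-POS, and 4 and 6 in standard serum, of 20 each time and so below the share of all genes called, with medians between log2 -0.17 and 0.30. NOP58, a core protein of ribosome assembly, was lower in MDA-MB-231 in all 4 comparisons, by log2 -1.82 ± 0.05 in 7TGP-NEG in low serum, and PPAN was higher in all 4, by log2 1.35 ± 0.16 there. Of the 12 MYC partners 5 were called in 7TGP-NEG and 4 in 7TGP-POS in low serum (41.9% and 38.9% of all genes were). Of these, 3 and 1 were higher in MDA-MB-231, and 2 and 3 lower. With standard serum 3 and 4 were called (46.7% and 45.4% of all genes), 2 and 2 of them higher and 1 and 2 lower. MXD4 and MXI1, which compete with MYC for MAX, were both called higher in MDA-MB-231 7TGP-NEG (log2 2.06 ± 0.06 and 1.83 ± 0.07 in low serum) and stood at log2 0.82 ± 0.05 and 0.67 ± 0.06, uncalled, in 7TGP-POS in low serum.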

How the data were processed

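RNA-seq of 16 libraries in 8 groups was analysed, with groups taken from the labels. The authors aligned reads with STAR (2.6.1a in the submitters' processing notes) to hg19 and deposited unfiltered raw counts per Gencode v19 gene and TPM. The strand setting and how TPM was made are not given in the sources used here. The serum conditions were tested separately.

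Genes annotated as protein-coding entered the test where their 8 libraries together held 10 counts or more, by edgeR 4.0.16 (R 4.3.3, TMM scaling, robust quasi-likelihood test, 4 groups in 1 model, Benjamini-Hochberg adjustment over all tested genes). TPM served only for levels between genes, since the top gene of a library (RN7SK in MDA-MB-436, an ID with no symbol in the name tables used here in MDA-MB-231) held 5.77% to 20.6% of TPM in low serum. Bounds rest on a floor of 3 counts per library, and intervals cover counting error only. Alternatives were DESeq2 1.42.0, limma 3.58.1 on log2 TPM, other scalings and filters, the replicate block and leaving out each library.

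Members and lists were chosen with earlier results of these data known, and the 5 Mb windows, 10 Mb bins and silent stretch after values were seen. Of each list, named genes came from those called, within the first 6 per comparison by adjusted p and not all of them printed, with the measured neighbours on 9p21 and 13q14 and the 3 genes most like each member called between sublines. Any further gene was picked with its values known. The reporter itself was not analysed here, and a few genes of the lists are not reported here.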

Additional observations from a re-analysis of the deposited data

Results flagged for a closer look

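The effect of the subline differed between the lines for CCND2 and CDK6 by the interaction term of the edgeR fit. CCND2 rose from MDA-MB-231 7TGP-NEG to 7TGP-POS and was lower in MDA-MB-436 7TGP-POS, in both replicates of each group, and the difference between these effects was log2 3.85 in low serum and 4.53 in standard serum. The difference kept to 3.68 to 3.92 and 3.97 to 4.60 over the alternatives. CDK6 rose in MDA-MB-436 7TGP-POS in both replicates and did not pass the test in MDA-MB-231, a difference of log2 -1.57 (low) and -2.16 (standard), with ranges of -1.66 to -1.31 and -2.29 to -1.75. Genes within 5 Mb of CDK6 had interaction medians of -0.81 and -0.85, and those within 5 Mb of CCND2 0.38 and 0.52. The part of these neighbours in either difference was not tested.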

How the results depend on the processing

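With no minimum fold, 4 members passed between sublines of MDA-MB-231 in low and in standard serum (38.9% and 33.0% of all genes did), 6 and 8 in MDA-MB-436 (52.0% and 49.5%), and 6 and 7 in the interaction (45.7% and 41.2%). Leaving out 1 library gave 1 to 2 members in MDA-MB-231 in low serum; the added gene, without 7TGP-POS replicate 2, was CDKN2B, which then rests on 3 counts. The replicate block gave 1, 3, 8, 9 and 2 members in low serum, then 1, 1, 9, 9 and 2 in standard serum, as without it. Same-numbered libraries correlated in their deviations at r = -0.08 to 0.11, so the numbers were not taken as pairs. Other counts of members stayed within 1.5 times. Of the counts of called genes in the lists, 60 moved by more than that under an alternative and 670 did not, and p53 targets between lines in 7TGP-NEG in low serum went from 8 to 15 on log2(TPM + 0.1). Shares of counts in place of TPM moved 22 of 24 D-type cyclin shares beyond the replicate SD, for CCND2 in MDA-MB-436 7TGP-NEG in low serum from 24.9% to 32.2%. Of 75 member differences with an adjusted p under 0.05, 10 rose above it under an alternative, 0 of them called. In MDA-MB-436 in low serum, CCND1 fell from 0.26 to 0.0153 and MYC from 0.37 to 0.119 on log2(TPM + 1) (limma adjusted p = 0.917 and 0.422). Differences of members changed sign in 28 cases, all uncalled. In MDA-MB-231 in low serum, CDK6 was 0.0179 with all biotypes, 0.00507 with only the 2 groups and -0.105 to 0.0719 without 1 library, CCNE1 was -0.00821 and -0.00953 on log2(TPM + 1) and log2(TPM + 0.1), RB1 -0.0307 and -0.0316, MYC -0.0743 and -0.0751, and CDKN2A -0.0383 to 0.815 without 1 library. In MDA-MB-436 in low serum, CDKN2A was -0.0316 by DESeq2, -0.0314 with its size factors, -0.0287 under filterByExpr, -0.00487 with all biotypes, -0.241 and -0.244 on the TPM scales and -0.0551 to 0.0445 without 1 library, CDKN2B was -0.153 and -0.165 and RB1 -0.0746 and -0.0874 on the TPM scales. The interaction of RB1 in low serum was -0.0210 with library totals alone and -0.0211 to 0.114 without 1 library, and that of CDKN2A -0.0418 to 0.812 without 1 library. CDKN2A in MDA-MB-436 in standard serum was -0.445 to 0.0841 without 1 library, the latter without 7TGP-POS replicate 1. The causes were not tested. CCND2, CDK6 and MYC between lines in 7TGP-POS in standard serum lay close to the fold bound, at 0.86, 0.92 and 0.99 with library totals alone and 0.81, 0.84 and 0.98 on log2(TPM + 1), and CCND3 at 0.85 and 0.88 on the TPM scales in low serum. The CCND2 and CDK6 calls in standard serum were also lost without MDA-MB-231 7TGP-POS replicate 2 and MDA-MB-436 7TGP-POS replicate 2 (0.99 each). CDKN2A and CDKN2B in MDA-MB-231 lay at or near the limit of 3 counts that depth sets.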
